A study of Mus musculus with 686 samples.

Results

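The 50 most abundant small nuclear RNAs (snRNAs) were described across 13 tissues of female BALB/cAnNTac mice. A row of the snRNA count table is an annotated snRNA transcript, and the 50 rows were chosen by their measured level, as the highest of its 1395 rows in mean CPM (counts per 1000000 of the library's sum in that table) over all 686 libraries. They held 63.1% of the summed mean CPM and had counts above 0 in all 686 libraries. Of the 50 rows, 5 carry a U-type in their name (Rnu1a1, Rnu1b1, Rnu1b2, Rnu2-10 and Rnu5g) and 45 do not. Their mean levels chose them and are given as a description, and tests are given between groups of libraries, which the rule did not use.

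Mice flown to the space station (FL) were compared with a habitat ground control (HGC), kept in flight-like housing on Earth, and a vivarium ground control (VGC), kept in standard cages. Live animal return (LAR) mice came back alive and gave 114 FL, 113 HGC and 121 VGC libraries, and mice terminated on the station with their controls on Earth (TERM) gave 115 FL, 114 HGC and 109 VGC libraries. Mice were 3 months old in 358 libraries and 8 months old in 328, no transgene or drug treatment is given in the labels, and brain of LAR and pancreas of TERM came from mice of 3 months alone. Per the study's methods, LAR organs were snap frozen soon after death. TERM carcasses were frozen whole, on the station without snap freezing, and thawed before dissection, with the spleen removed fresh beforehand. Anesthesia, preservation and time of collection therefore cannot be told apart between LAR and TERM in any arm. In FL mice, time in flight and landing come on top, whereas HGC and VGC mice neither flew nor landed. The adipose tissues were gonadal (GAT), mesenteric (MAT), subcutaneous (SCAT) and brown (BAT).

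Spliceosomal snRNAs are short nuclear RNAs that fold with proteins into the particles that remove introns. U1 pairs with the upstream splice site and U2 with the branch point, after which U4, U5 and U6 join. U6 then replaces U1 at the splice site and builds the catalytic core with U2, while U5 holds the exons. U6 is made by RNA polymerase III, and the other major types by RNA polymerase II. Each type is encoded by many near-identical gene copies and pseudogenes in the mouse genome, and U11 and U12 serve a minor class of introns. The libraries were made for small RNA with reads of 50 bases, so a count stands for a fragment of an snRNA and not for the full-length molecule. In bulk tissue, fewer cells of a type and less RNA per cell cannot be told apart.

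The column sums of the snRNA table ranged from 232397 to 64070775 with a median of 4756012. The table took 0.745% to 49.8% of the counts of 7 RNA classes (median 8.46%). A read adds to these sums once for each copy that it matched, so the share is of counts and not of reads. The 6 miRNAs used as tissue markers were each highest in their own tissue. The whole miRNA profile of 166 libraries was closest to another tissue than the labelled tissue, among them 46 of 57 MAT libraries, and 11 of the 44 library pools (168 libraries) held more than 1 such library in 3. The comparisons of tissues, and of LAR with TERM, are also given without these libraries where that moved them.

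Reads were counted on every copy that they matched. Rows of identical sequence had identical counts, and the 50 rows held 15 distinct count profiles. Each profile is called here by its best-known row. By sequence, with at least 80% identity to a named snRNA or the same counts as such a row, 14 rows (6 profiles) were U1, 13 rows (7 profiles) were U2, 1 row was U5 and 22 rows (1 profile) were U6. A Gm23444 transcript among the U2 rows had no sequence and shared its counts with no other row, and was typed by its gene symbol. No U4, U7, U11, U12 or 7SK row was among the 50. With each distinct profile counted once, the 15 profiles held 49.6% of the CPM.

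The U2 rows differed most in level from each other although they are nearly the same RNA, so their sequences are printed first, as GENCODE M21 gives them. Positions count from 1 at the 5′ end. Capitals mark in Rnu2-10 the bases at which any of the other rows differs, and in the other rows the bases that differ from Rnu2-10. Gm26316 carries C170T, Gm23444 carries G109C, Gm24497 carries G109C and C186A, Gm25939 carries T69C, C78T and G109C, and Gm25813 carries C78T and G131C.
Rnu2-10: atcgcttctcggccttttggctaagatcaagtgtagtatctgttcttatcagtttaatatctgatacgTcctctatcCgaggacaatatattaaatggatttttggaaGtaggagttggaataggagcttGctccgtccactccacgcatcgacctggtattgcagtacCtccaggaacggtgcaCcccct
Gm26316: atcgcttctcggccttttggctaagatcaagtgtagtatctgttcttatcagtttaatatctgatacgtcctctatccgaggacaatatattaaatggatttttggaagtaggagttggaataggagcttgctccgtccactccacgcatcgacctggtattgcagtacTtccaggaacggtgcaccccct
Gm23444: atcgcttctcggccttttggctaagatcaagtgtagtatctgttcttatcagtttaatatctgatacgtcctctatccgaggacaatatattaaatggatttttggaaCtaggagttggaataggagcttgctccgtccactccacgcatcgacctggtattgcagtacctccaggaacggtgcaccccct
Gm24497: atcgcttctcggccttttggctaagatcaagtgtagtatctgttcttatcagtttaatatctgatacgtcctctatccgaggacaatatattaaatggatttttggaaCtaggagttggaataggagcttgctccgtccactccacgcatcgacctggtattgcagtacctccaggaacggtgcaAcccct
Gm25939: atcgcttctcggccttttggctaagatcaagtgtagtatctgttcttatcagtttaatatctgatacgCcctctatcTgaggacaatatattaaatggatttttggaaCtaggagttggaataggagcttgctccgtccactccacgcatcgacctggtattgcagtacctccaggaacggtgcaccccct
Gm25813: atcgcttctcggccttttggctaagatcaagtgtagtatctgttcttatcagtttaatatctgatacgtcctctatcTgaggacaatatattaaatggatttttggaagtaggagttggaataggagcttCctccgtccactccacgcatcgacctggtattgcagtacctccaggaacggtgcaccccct

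Rnu2-10, identical to Gm24950, Gm23971 and Gm23849, had a mean of 21948 ± 8990 CPM (SD, n = 686), with values from 5711.9 to 61083. Gm26316, which differs from it by C170T near the 3′ end, had 20490 CPM, 93.4% of the Rnu2-10 level. Gm23444 also differs by a single base, G109C, and had 7478 CPM, 34.1% of Rnu2-10. Both rows were a single substitution away from Rnu2-10, yet their levels were far apart. Gm24497 stood at 6164 CPM (28.1%), Gm25939 at 4771 CPM (21.7%) and Gm25813 at 4212 CPM (19.2%). A second Gm23444 profile, of another transcript that had no sequence in GENCODE M21, had 6628 CPM, and 3 further rows shared the counts of Gm23444. In single libraries Gm26316 ran from 71.2% to 98.1% of Rnu2-10 (median 93.5%), Gm23444 from 20.1% to 58.9% (median 35.3%) and Gm25813 from 9.7% to 90.0% (median 17.6%). Gm25813, the U2 row that alone carries G131C among these, had the widest range of them.

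**Figure D1:**
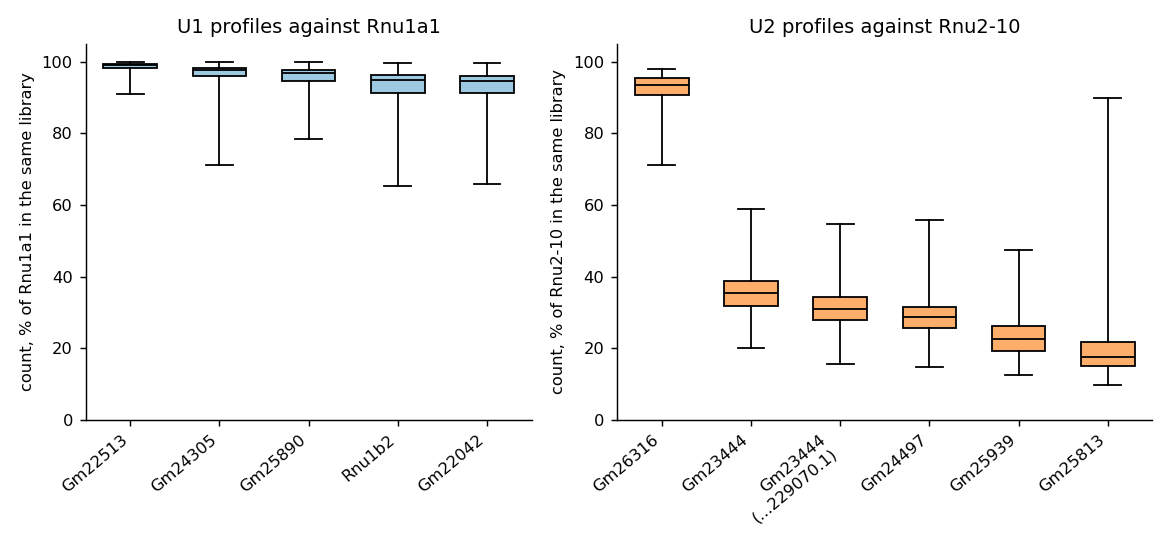
Count of each U1 profile as a percent of Rnu1a1 (left) and of each U2 profile as a percent of Rnu2-10 (right) in the same library, over 686 libraries; boxes span the quartiles, lines inside are medians and whiskers reach the lowest and highest library. The U1 profiles lie close to Rnu1a1, while the U2 profiles other than Gm26316 lie far below Rnu2-10, and Gm25813 reaches 90.0% in the highest library.

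U1 was led by Rnu1a1, which shared its sequence and counts with Gm22068, Gm22317, Gm22634, Gm23804, Gm25679 and Gm26444. Rnu1a1 had 27792 ± 8939 CPM (SD, n = 686), with values from 4755.9 to 52569. Gm22513 and Gm24305, each 1 edit from Rnu1a1, stood at 98.9% and 97.1% of its level. Gm25890 (6 edits, shared with Gm22614) stood at 96.4%, and Rnu1b2 (7 edits, shared with Rnu1b1) and Gm22042 (7 edits) at 94.0% each. These percentages hold for the rows that their level chose, which were 14 of the 54 U1 rows and 13 of the 19 U2 rows of the table, and U1 rows outside the 50 were lower, such as Rnu1b6 at 1133 CPM. Across the 686 libraries the U1 profiles ran together, with Pearson correlations of log2 CPM from 0.993 to 1.0, and they are near-identical sequences counted in the same libraries.

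Rnu5g, a U5 gene and the only one of the 10 U5 rows of the table among the 50, had 4019 ± 1633 CPM, with its lowest count of 199 in a TERM brain library that also had the lowest snRNA total, 232397.

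The U6 profile had 3914 ± 985 CPM, the smallest SD of the 15 profiles. Its 22 rows, none with a U-type in its name, belonged to 43 rows with the same counts, and the other 21 of these, Rnu6 among them at rank 51, fell outside the 50 by the order of the table. Ranks 49 (Gm25256), 50 (Gm22822), 51 (Rnu6) and 52 (Gm24753) all had 3914.4 CPM, and the first row after the tie was Gm25099 at rank 72 with 3902.7 CPM. Per base of annotated length, the mean level was 169 CPM for Rnu1a1, 115 CPM for Rnu2-10, 36.6 CPM for the U6 profile and 34.6 CPM for Rnu5g. Apart from Rnu6, 5 rows with a U-type in their name fell outside the 50. Rnu1b6 had 1133 CPM, Rnu11 of the minor spliceosome 960 CPM, Rnu12 885 CPM, Rnu7, which serves histone mRNA processing, 182 CPM and Rnu6-ps2 113 CPM. U1 and U6 levels ran against each other across libraries (Pearson r from -0.72 to -0.699 of log2 CPM, n = 686), as did U1 and U2 (r from -0.633 to -0.3), and all of them share a denominator that U1 helps to fill.

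Differences between tissues were moderate. The largest span of tissue medians was 0.94 on the log2 CPM scale for Gm26316 (14.66 in pancreas, 13.72 in GAT) and for the second Gm23444 profile (13.04 in spleen, 12.1 in GAT), followed by 0.92 for Rnu2-10 (14.76 in pancreas, 13.84 in GAT). The smallest spans were 0.51 for Gm25939 (12.41 in thymus, 11.91 in lung), 0.55 for the U6 profile (12.16 in kidney, 11.61 in SCAT) and 0.65 for Gm22513 (15.09 in SCAT, 14.44 in kidney). The U1 profiles were highest in SCAT and lowest in kidney by their medians, whereas the U6 profile was highest in kidney and lowest in SCAT. The median SD within a tissue was 0.5 for Rnu1a1, 0.55 for Rnu2-10 and 0.31 for the U6 profile on the same scale, against spans of 0.66, 0.92 and 0.55.

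Because CPM values depend on each other, types were also compared within a library. The log2 ratio of Rnu2-10 to Rnu1a1 counts (U2/U1, with 0.5 counts added to each) does not change with the scaling of the library. Its median was lowest in GAT (-1.19; lowest -3.07, highest 0.99, n = 60) and SCAT (-1.12; -2.46 to 1.52, n = 58). It was highest in kidney (0.15; -2.22 to 2.55, n = 57), pancreas (0.1; -1.77 to 2.45, n = 39) and liver (0.04; -2.51 to 1.82, n = 58). Brain (-0.77), MAT (-0.75), diaphragm (-0.63), lung (-0.61), heart (-0.46), BAT (-0.44), spleen (-0.17) and thymus (-0.17) lay between. The libraries of every tissue overlapped those of every other, and the SD within a tissue was 0.81 to 1.12, so neighbours in this order did not differ beyond their spread. Without the libraries closest to another tissue, the median was -1.18 in MAT (11 libraries left), -1.41 in GAT and 0.37 in kidney. The ratio of the U6 profile to Rnu1a1 (U6/U1) had its lowest medians in SCAT (-3.49) and GAT (-3.32) and its highest in kidney (-2.3) and spleen (-2.41). U5/U1 (Rnu5g over Rnu1a1) ranged from -3.24 in SCAT to -2.3 in pancreas. Without the libraries closest to another tissue, U6/U1 was -3.65 in SCAT, -3.54 in MAT and -3.36 in GAT. U5/U1 was then -3.4 in SCAT and -3.36 in MAT.

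**Figure D2:**
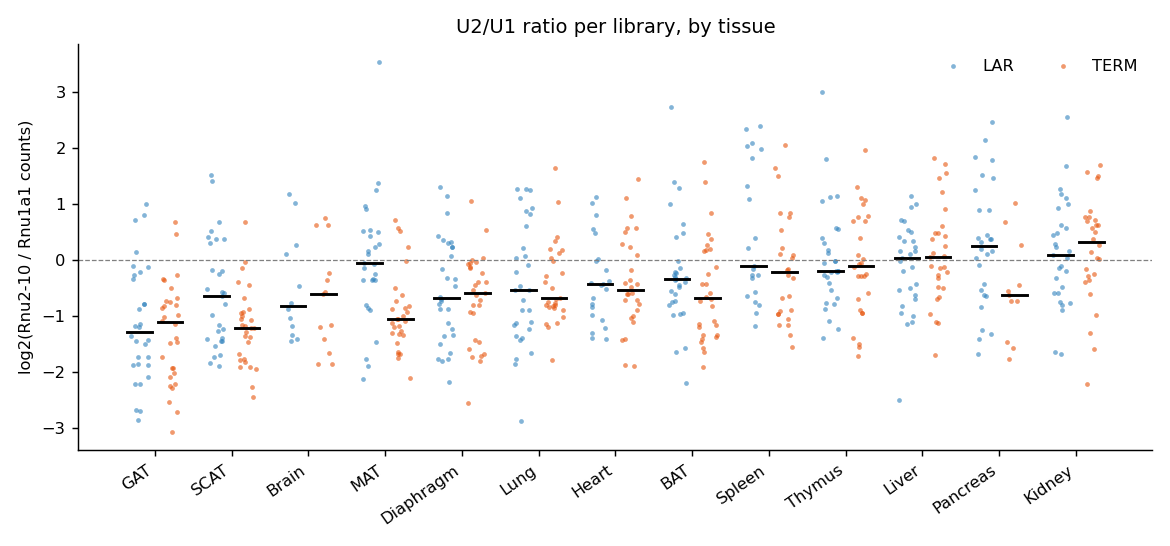
Log2 ratio of Rnu2-10 to Rnu1a1 counts in each of 686 libraries, by tissue in the order of the tissue median, with LAR in blue and TERM in orange; black bars are medians of each set and the dashed line marks equal counts. GAT and SCAT lie lowest and kidney, pancreas and liver highest, with wide overlap between all tissues.

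Each tissue was then set against the mean of the other 12 with edgeR's quasi-likelihood test over all rows of the table, with counts scaled by TMM (a trimmed mean of row ratios) and Benjamini-Hochberg adjusted p below 0.05 as the threshold. In LAR, 55 of 195 pairs of profile and tissue passed (28.2%), and 246 of 650 pairs of row and tissue (37.8%), against 34.5% of all rows tested. In TERM, 104 of 195 profile pairs (53.3%) and 405 of 650 row pairs (62.3%) passed, against 46% of all rows. Of the pairs that passed, 49 did so in both LAR and TERM, 47 of them in the same direction and 2 in opposite directions. Diaphragm was lower in all 15 profiles in LAR and in TERM, where 31.1% and 29.8% of all rows were called lower. In CPM the profiles of diaphragm did not go one way. Its median of the U6 profile was low (3476 CPM, against 3980 CPM over all libraries) and that of Rnu2-10 slightly so (19526 against 20471 CPM), while that of Rnu1a1 was 28425 against 27845 CPM and that of Gm25813 4608 against 3772 CPM. Rnu2-10 was lower in diaphragm by -0.62 ± 0.14 (log2, SE) in LAR and -0.64 ± 0.14 in TERM. In GAT, 7 profiles in LAR and 8 in TERM were lower, against 20.4% and 28.1% of all rows, with Rnu2-10 at -0.64 ± 0.14 and -0.67 ± 0.14 and the U6 profile at -0.4 ± 0.08 and -0.36 ± 0.08. Spleen was higher in 8 profiles in LAR and 7 in TERM, against 29.4% and 29.9% of all rows, with the U6 profile at 0.41 ± 0.08 and 0.5 ± 0.07. Liver had a higher U6 profile as well (0.38 ± 0.07 in LAR and 0.48 ± 0.07 in TERM). Pancreas was higher in 5 profiles in LAR (20.8% of all rows higher) and in 14 in TERM (37% of all rows higher). Its U6 profile was higher in LAR (0.31 ± 0.07) and lower in TERM (-0.64 ± 0.12). In TERM pancreas Rnu5g was at 2.29 ± 0.15, Rnu1a1 at 1.78 ± 0.16 and Rnu2-10 at 1.68 ± 0.18. Without the libraries closest to another tissue, 50 profile pairs passed in LAR and 108 in TERM. Shares of all rows are not given for this setting, so its counts cannot be set against them. Diaphragm was again lower in all 15 profiles in both, with Rnu2-10 at -0.93 in LAR (21 libraries left) and -1.11 in TERM (19 left). In SCAT of LAR 1 profile was lower, against 6 with all libraries, and in MAT of TERM 0 were lower, against 8, with 7 libraries left. In GAT of TERM 6 profiles were then higher beside 8 lower, and in kidney and in liver of TERM 6 were lower beside 6 higher. With the total of the 7 RNA classes as library size and no TMM, 135 profile pairs passed in LAR and 127 in TERM. The scale of all rows of a tissue then moved by -1.11 to 1.01 in LAR and by -2.91 to 1.24 in TERM (log2). Shares of all rows are not given on that scale either. Whether the profiles did more than all rows of a tissue there was not tested. On that scale pancreas was lower in 15 profiles in LAR and in 14 in TERM, and higher in 0, so its direction turned with the scaling. Diaphragm was lower in 8 profiles in LAR and in 0 in TERM. GAT was lower in 15 profiles and spleen higher in 15, in LAR and in TERM alike.

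The pool in which a library was made took a larger part of the spread of the ratios than the tissue, arm or age of the mice, with more levels to do so. Of the sum of squares of U2/U1 over the 686 libraries, pool accounted for 38.5% (44 pools), plate for 22.8% (8 plates), tissue for 15.7%, LAR against TERM for 1.64%, arm for 0.106% and age for 0.0176%. Plate medians of U2/U1 were -0.63, 0.3, -0.61, -0.38, -0.54, 0.39, -0.82 and -1.32 on plates 1 to 8. Plates 2 and 6 stood high and plate 8 low, and the medians of plates 2 and 6 were above that of plate 8 in 13 of 13 tissues. Pool medians ranged from -1.7 to 0.92, and 15 of 44 pools had more Rnu2-10 than Rnu1a1 counts at the median, 11 of them among the 12 pools of plates 2 and 6. U6/U1 and U5/U1 also had more of their sum of squares with pool (28.8% and 30%) than with tissue (16.8% and 6.42%). By contrast, the share of snRNAs in the 7 classes, on the log2 scale, went with tissue (53.2%) more than with pool (9.98%). Pool and plate come from the study's sample list, and what differed between them was not tested.

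**Figure D3:**
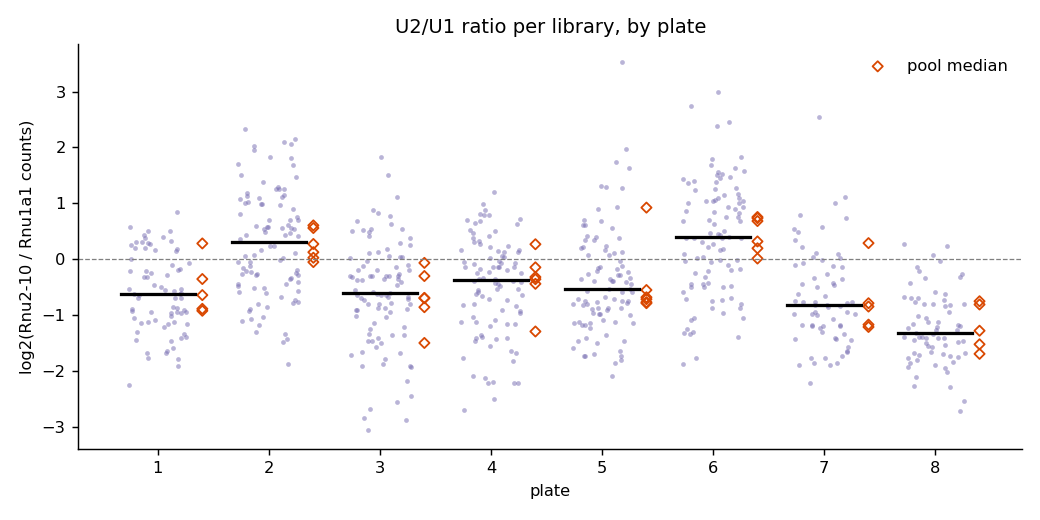
Log2 ratio of Rnu2-10 to Rnu1a1 counts in each library, by plate; black bars are plate medians and open diamonds pool medians. Plates 2 and 6 lie highest, with medians of 0.3 and 0.39, and plate 8 lowest, with a median of -1.32.

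The arms compare flight with housing like that in flight and with standard housing. For these snRNAs no pair of profile and tissue passed the threshold between arms in the edgeR fits of all libraries with arm as the only term and the filter on low counts, on the TMM scale. For FL against HGC in LAR, 0 of 195 profile pairs and 0 of 650 row pairs passed edgeR's test, against 0.126% of all rows, with 16 profile pairs at an unadjusted p below 0.05 and 0 calls by DESeq2 or the Wilcoxon test. For FL against VGC in LAR the count was 0 against 0.0194% of all rows (2 at an unadjusted p below 0.05, and 0 by either other tool). For HGC against VGC in LAR it was 0 against 0% (16 unadjusted), with 1 call by DESeq2 and 0 by the Wilcoxon test. In TERM, FL against HGC gave 0 against 0.154% (7 unadjusted), FL against VGC 0 against 0.26% (6 unadjusted) and HGC against VGC 0 against 0.193% (1 unadjusted), each with 0 calls by DESeq2 and by the Wilcoxon test. These comparisons share their samples between arms. With plate as a term, FL against VGC in TERM gave 7 calls, all in brain and higher in FL, from 13 libraries on 8 plates. They were the 6 U1 profiles (Rnu1a1 1.31 ± 0.28, edgeR adjusted p = 0.000153) and Rnu5g (1.07 ± 0.33, adjusted p = 0.0447). No share of all rows is given for that fit. VGC mouse 8, the library with the lowest snRNA total (232397), had 11855 CPM of Rnu1a1 and 856 CPM of Rnu5g. The other VGC libraries had 18867 to 40564 CPM and 3895 to 7846 CPM. Without the filter on low counts, HGC against VGC in LAR gave 7 calls for the same profiles, again in brain. Rnu1a1 was at 1.08 ± 0.3 (edgeR adjusted p = 0.018), and 4.61% of all rows of brain passed.

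Among the lead profiles, Rnu1a1 differed between FL and HGC in LAR by -1.04 ± 0.5 (log2, SE) in brain up to 0.41 ± 0.35 in spleen. Rnu2-10 ranged from -0.63 ± 0.36 in MAT to 0.25 ± 0.4 in spleen, and the U6 profile from -0.36 ± 0.33 in diaphragm to 0.19 ± 0.14 in liver. Rnu5g lay below 0 in 13 of 13 tissues, from -0.84 ± 0.29 in brain to -0.01 ± 0.2 in liver, and with a smallest adjusted p of 0.484 by edgeR it passed in none. Against VGC the same FL libraries of LAR lay above 0 in 6 of 13 tissues (0.31 ± 0.29 in brain), and HGC lay above VGC in 10 of 13. In TERM Rnu5g of FL lay above HGC in 5 of 13 tissues. The smallest unadjusted p of all 6 arm comparisons belonged to Rnu5g in brain for HGC against VGC in LAR (log2 change 1.16 ± 0.29, edgeR adjusted p = 0.139). In the 4 HGC libraries Rnu5g had 5311, 7529, 4846 and 6165 CPM, and in the 4 VGC libraries 6930, 4703, 5937 and 2804 CPM. On the CPM scale these groups overlapped, whereas those of Rnu1a1 did not, with 36053 to 41552 CPM in HGC and 14767 to 34908 CPM in VGC. On library sizes over the 7 classes without TMM, which moved the median of all rows by -0.39 to 1.19 over the tissues, 18 profile pairs passed for FL against HGC in LAR, 6 in BAT (log2 change 0.72 to 1.0) and 12 in GAT (1.21 to 1.38), all higher in FL. On that scale 37.1% of all rows passed in BAT and 76.7% in GAT, with medians of 0.73 and 1.21 over all rows and of 0.81 and 1.29 over the profiles.

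**Figure D4:**
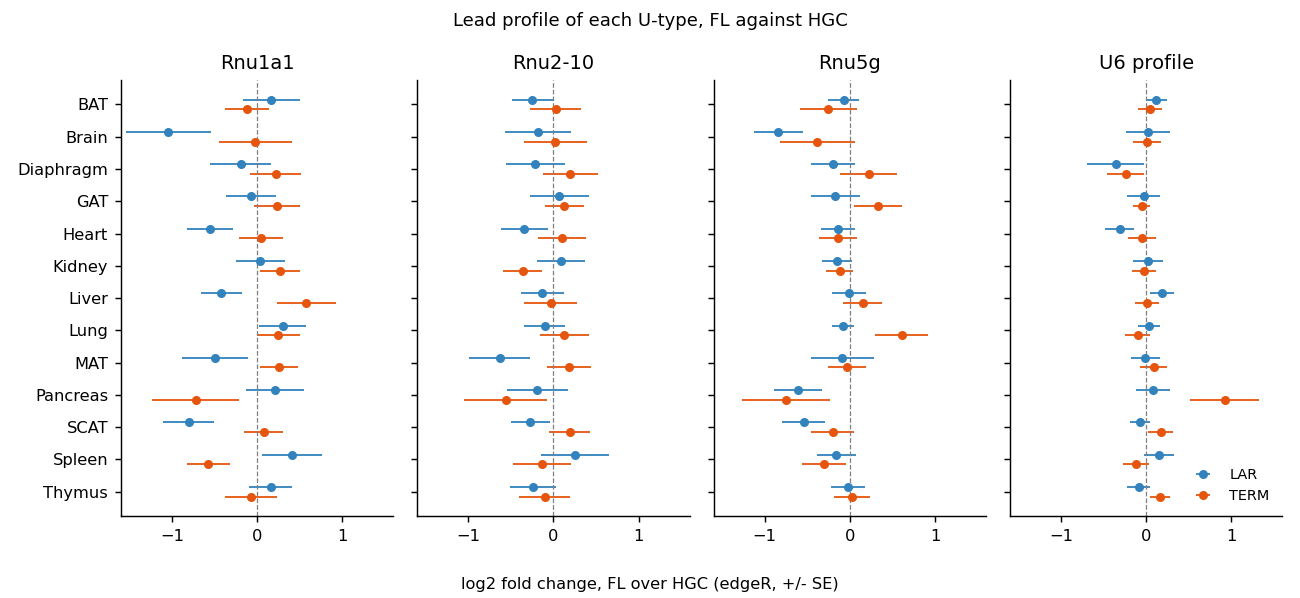
Log2 fold change of FL over HGC by edgeR for Rnu1a1, Rnu2-10, Rnu5g and the U6 profile in 13 tissues, with LAR in blue and TERM in orange; bars are standard errors and the dashed line marks no change. No point passed the adjusted threshold, and Rnu5g lies below 0 in all LAR tissues, from -0.84 to -0.01, whereas against VGC, not plotted, it was above 0 in 6 of 13.

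The within-library ratios, which no scaling moves, gave no call either. Over U2/U1, U5/U1, U6/U1 and the ratios of Gm23444 and Gm25813 to Rnu2-10, 0 of 65 pairs of ratio and tissue passed in each of the 6 arm comparisons (2-sided permutation test over libraries, exact where the splits allowed it, Benjamini-Hochberg over the 65), with 3 at an unadjusted p below 0.05 for FL against HGC in LAR and 2 in TERM. Closest to the threshold was Gm23444/Rnu2-10 in liver of LAR, -1.61 ± 0.18 in FL (SD, n = 10) and -1.37 ± 0.07 in HGC (n = 9), a difference of -0.24 (exact permutation p = 0.00135, adjusted p = 0.088). In FL brain of LAR, U6/U1 was -2.47, -3.31, -1.47 and -2.91, and in HGC -3.96, -4.1, -3.73 and -3.39, which did not overlap (difference 1.25, exact permutation p = 0.0286, the smallest that 4 against 4 allows, adjusted p = 0.619). Shares of each U-type in the snRNA counts, by the row names, did not pass in any of 91 pairs of type and tissue for FL against HGC in LAR (6 at an unadjusted permutation p below 0.05) or in TERM (3).

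Age gave few calls on the TMM scale. For mice of 8 against 3 months in LAR, 0 of 180 profile pairs passed, against 3.07% of all rows (0 at an unadjusted p below 0.05). In TERM, 3 of 180 profile pairs (1.67%) passed against 3.28% of all rows. They were the U6 profile in SCAT (log2 change 0.32 ± 0.11, edgeR adjusted p = 0.0362), the second Gm23444 profile in SCAT (0.42 ± 0.15, adjusted p = 0.0492) and the U6 profile in thymus (-0.23 ± 0.08, adjusted p = 0.0475). The U6 profile thus differed in opposite directions in the 2 tissues. Since the profile stands for 22 rows, the same calls make 45 of 600 row pairs. Without the 11 pools, 0 pairs passed. Without the libraries closest to another tissue, the 3 pairs that passed in TERM were others, all in MAT. They were Rnu2-10 (-0.78 ± 0.3), Gm26316 (-0.87 ± 0.31) and Gm24497 (-0.79 ± 0.29), with 7 libraries left and 29.1% of all MAT rows passing. The U6 profile in thymus then passed in LAR (-0.37 ± 0.12, edgeR adjusted p = 0.0173), where 41% of all rows of thymus passed. On library sizes over the 7 classes, 17 pairs passed in TERM, 9 in heart (log2 change 0.99 to 1.52), 7 in SCAT (0.88 to 1.07) and 1 in thymus (-0.84). On that scale 8.02% of all rows passed, 48.3% in heart, 19.6% in SCAT and 28.7% in thymus, and the scale of all rows moved by -0.6 to 0.63 over the tissues. Without the filter on low counts, 0 pairs passed, against 1.1% of all rows. No ratio passed in either age comparison (0 of 60 each, with 2 at an unadjusted permutation p below 0.05 in LAR and 5 in TERM).

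Of the comparisons between conditions, LAR against TERM gave the most calls, in pancreas above all. Over the 13 tissues, 23 of 195 profile pairs (11.8%) passed edgeR's test, against 16.4% of all rows. In LAR, 8 pairs were higher and 15 lower, against 8.92% and 7.5% of all rows. The calls lay in pancreas (10 profiles), MAT (7) and SCAT (6), where 57.6%, 29.9% and 41.8% of all rows passed. Without the libraries closest to another tissue, 37 profile pairs passed (18.6% of all rows), with 6 in GAT and 6 in heart added. On the scale of the 7 classes 41 passed, all higher in LAR (23.8% of all rows), 14 of them in liver. In pancreas Gm25813 had a log2 change of LAR over TERM of -2.77 ± 0.31 (adjusted p = 2.03e-09), the U6 profile 1.38 ± 0.23 (adjusted p = 5.47e-06) and Rnu1a1 -1.52 ± 0.3 (adjusted p = 4.99e-05), with Gm22513 (-1.53 ± 0.3) and Gm25890 (-1.56 ± 0.31) beside it. On the library size of 7 classes without TMM, which moved all rows of pancreas by a median of 2.19, Gm25813 was at -0.1, the U6 profile at 3.47 and Rnu1a1 at 0.88, so the direction of U1 turned with the scaling while the order of the 3 did not.

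The ratios within a library do not depend on that scaling. In the 4 FL libraries of TERM pancreas, U6/U1 was -4.16, -4.86, -2.02 and -5.8, and in the 5 HGC libraries it was -4.44, -6.22, -6.07, -5.99 and -6.81. The 2 VGC libraries had -4.81 and -6.42. The 28 LAR pancreas libraries ranged from -4.21 to -0.6 with a median of -2.41. Thus 10 of the 11 TERM libraries were at or below -4.16, near or beyond the low end of LAR. FL mouse 3 of TERM lay within the LAR range. Its pool was among the 11 pools with many libraries closest to another tissue, though its own miRNA profile was closest to pancreas. The difference was 2.96, with means of -2.28 ± 0.86 in LAR (SD, n = 28) and -5.24 ± 1.37 in TERM (n = 11; permutation within arms, p = 1e-05, the smallest that 100000 resamples give, adjusted p = 0.000325).

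Gm25813/Rnu2-10 set the same libraries apart. It was -0.8, -0.51, -2.67 and -0.55 in the FL libraries, -0.37, -0.15, -0.5, -0.34 and -0.33 in the HGC libraries and -0.67 and -0.19 in the VGC libraries of TERM pancreas. In LAR it ranged from -3.04 to -0.84 with a median of -2.69. The same 10 TERM libraries lay above all 28 LAR libraries, and FL mouse 3, from 1 of the 11 pools, lay close to the LAR median. The difference was -1.94 (permutation within arms, p = 1e-05, the smallest possible, adjusted p = 0.000325). In CPM, Gm25813 had a median of 22688 in TERM pancreas and 4486 in LAR, and the U6 profile 895 and 4517. Gm25813 was at a median of 70.9% of Rnu2-10 in TERM pancreas, 15.5% in LAR pancreas and 17.6% in the other tissues. Gm25939, which shares C78T with Gm25813 but not G131C, was at 21.6%, 17.7% and 22.7% in the same sets, and Gm23444 at 24.6%, 28.7% and 35.5%. Gm25813 thus stood apart from the row that shares its other substitution, by percent of Rnu2-10. A fragment with G131C counts on Gm25813 alone among these rows, and which fragments gave the counts was not tested. U2/U1 and U5/U1 in pancreas did not pass (differences 0.85 and 0.23, adjusted permutation p = 0.235 and 0.777).

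**Figure D5:**
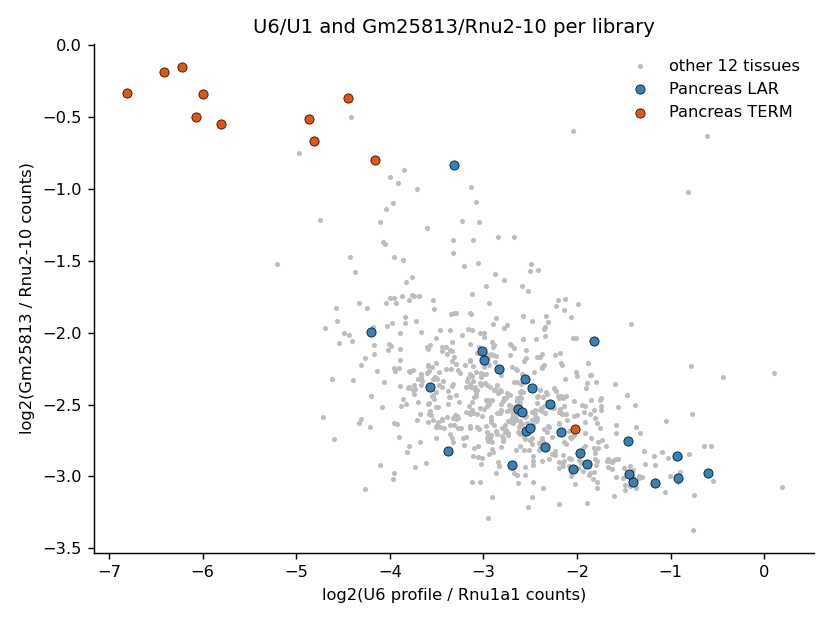
Log2 ratio of the U6 profile to Rnu1a1 (horizontal) against that of Gm25813 to Rnu2-10 (vertical) in each of 686 libraries, with pancreas LAR in blue, pancreas TERM in orange and the other tissues in gray. Of the 11 TERM pancreas libraries, 10 lie at the upper left, at or below -4.16 and at or above -0.8, and FL mouse 3 lies among the LAR libraries.

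Of the other 676 libraries, 30 had U6/U1 at or below -4.16, 4 had Gm25813/Rnu2-10 at or above -0.8, and 2 had both. Those 2 were LAR libraries labelled GAT, HGC mouse 16 (-4.42 and -0.5) and VGC mouse 1 (-4.97 and -0.75), and the miRNA profile of the second was closest to pancreas. Within TERM pancreas the snRNA total moved with the pattern. FL mouse 3 had 8321701 snRNA counts and a share of 6.43% of the 7 classes, while the other 10 TERM pancreas libraries had 519304 to 1725917 counts and shares of 0.788% to 3.12%. LAR pancreas libraries had 693679 to 8946205 counts (median 1844663) and shares of 2.33% to 20.4%. Their totals thus overlapped those of the 10 TERM libraries. The TERM pancreas libraries came from 6 plates, and with each ratio taken less its pool median the differences were 2.38 and -1.75 (adjusted permutation p = 0.000325 each). As plain differences of means, 2.96 and -1.93 with all libraries, they were 3.28 and -2.13 without FL mouse 3 of TERM, and 3.15 and -1.94 without the libraries closest to another tissue, among them FL mouse 1 of TERM. The part of the low snRNA share and of the thawed carcasses in these values was not tested.

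In MAT, U2/U1 was higher in LAR (-0.04 ± 1.14, SD, n = 28) than in TERM (-0.92 ± 0.72, n = 29; permutation within arms, adjusted p = 0.00867). U5/U1 differed by 0.81, U6/U1 by 0.8 and Gm25813/Rnu2-10 by -0.42 (adjusted permutation p = 0.00152, 0.0123 and 0.0103). Rnu2-10 had 7380, 23465 and 54671 CPM (lowest, median, highest) in LAR and 9045, 16280 and 40632 CPM in TERM, and Rnu1a1 had 4756, 25640 and 43112 CPM in LAR and 18413, 34797 and 43190 CPM in TERM, so the sets overlapped. The miRNA profile was closest to pancreas in 19 of the 28 LAR libraries and in 2 of the 29 TERM libraries of MAT. U2/U1 had a median of 0.27 in those 19 and of -0.87 in the other 9 LAR libraries, against -1.1 in the 27 other TERM libraries. Without all libraries closest to another tissue, 4 LAR and 7 TERM libraries of MAT remained, and none of the 4 ratios passed (adjusted permutation p from 0.242 to 0.826). The differences were then 0.85 for U2/U1, 1.12 for U5/U1, 0.63 for U6/U1 and -0.71 for Gm25813/Rnu2-10, much as with all libraries or larger, from fewer libraries. By edgeR, Rnu2-10 was higher in LAR by 0.75 (adjusted p = 0.00628) and the U6 profile by 0.49 (adjusted p = 0.00103), and without those libraries by 1.22 and 0.64 (adjusted p = 0.0123 and 0.00818). On the scale of the 7 classes Rnu2-10 kept its call (0.81, adjusted p = 0.0381) and the U6 profile did not (0.55, adjusted p = 0.0881).

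In SCAT, U5/U1 was higher in LAR by 0.73 (-2.82 ± 0.81 against -3.54 ± 0.61, SD, n = 29 each, adjusted permutation p = 0.00276) and U6/U1 by 0.62 (-3.09 ± 0.73 against -3.7 ± 0.54, adjusted permutation p = 0.00611). Rnu1a1 had 13861, 30851 and 44602 CPM (lowest, median, highest) in LAR and 23576, 39381 and 47505 CPM in TERM, with wide overlap. By edgeR, Rnu1a1 was lower in LAR by -0.58 (adjusted p = 0.00411), and the change was 0.07 on the scale of the 7 classes. Without the libraries closest to another tissue U6/U1 kept its call (0.68, adjusted permutation p = 0.00152) and U5/U1 did not (0.52, adjusted permutation p = 0.176). In all, 8 of 65 pairs of ratio and tissue passed between LAR and TERM, all of them in these 3 tissues.

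Among the rest of the splicing RNAs, the snRNA rows outside the 50 were counted by sequence type over all tissues. They include the 21 U6 rows with the same counts as the U6 profile, so its calls recur here. Other copies share reads too, so these row pairs are not independent of each other or of the 50. Between LAR and TERM, 70 of 498 row and tissue pairs of U1 passed edgeR's test (8 higher in LAR), 9 of 78 of U2 (4 higher), 17 of 117 of U5 (1 higher), 1085 of 5788 of U6 (673 higher), 5 of 51 of U11 (1 higher), 12 of 52 of U12 (2 higher) and 7 of 48 of U7 (0 higher). These were 14.1% for U1, 11.5% for U2, 14.5% for U5, 18.7% for U6, 9.8% for U11, 23.1% for U12 and 14.6% for U7, against 16.4% of all rows. Rnu12 was lower in LAR in 7 tissues (BAT, brain, GAT, kidney, liver, MAT and SCAT), from -0.47 ± 0.12 in liver to -1.14 ± 0.14 in SCAT (adjusted p = 1.37e-08 by edgeR), and did not pass in pancreas (-0.39 ± 0.25). Rnu7 was lower in 5 tissues, by -1.29 ± 0.29 in brain, -1.04 ± 0.29 in pancreas, -0.78 ± 0.18 in SCAT, -0.75 ± 0.17 in BAT and -0.46 ± 0.16 in kidney. Between FL and HGC in LAR, 11 of 493 U1 pairs passed, all in GAT and lower in FL (log2 change -3.16 to -1.67), and they were 11 of the 13 calls among all 10326 row and tissue pairs of that comparison (0.126%). In LAR 0 of 78 U2, 0 of 117 U5 and 0 of 5744 U6 pairs passed. In TERM 14 of 5735 U6 pairs passed (0.244%), 7 of them higher in FL in lung (1.35 to 1.9) and 7 lower in spleen (-1.02 to -0.68), out of 16 calls among all rows (0.154%). Small Cajal body RNAs guide the chemical modification of snRNAs, and their table of 51 rows gave 53 of 416 pairs between LAR and TERM (26 higher in LAR), 16 of them among 29 rows in pancreas, 16 among 33 in MAT, 11 among 35 in thymus, 7 among 32 in SCAT, 2 among 33 in GAT and 1 among 32 in lung. It gave 1 of 399 pairs between FL and HGC in LAR and 1 of 394 in TERM.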

How the data were processed

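Small RNA was sequenced from 686 libraries with single-end reads of 50 bases. Per the submitters' notes and the study's methods, the authors mapped reads to GRCm39 with miRMaster and deposited raw counts per annotated RNA, whole numbers in the snRNA table. The miRNA table holds estimated counts that need not be whole, deposited by the authors, and was used for library sizes and the tissue check. Identical copies carry identical counts. The 50 rows, types, ratios and lists were chosen with earlier results of these data known. Named were the highest row of each U-type, ranks 49 to 52, and the 3 profiles with the widest and the 3 with the narrowest span. For LAR against TERM, the 5 pairs with the smallest adjusted p below 0.05 and beyond 1 on the log2 scale were named. This last rule was not used for the comparisons of tissues. Other rows named, among them Gm23444 and Gm25939, were chosen after their values were seen.

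Tests used edgeR 4.0.16 (R 4.3.3) per tissue on rows with at least 5 counts in at least 10% of the libraries of any group, with TMM scaling and Benjamini-Hochberg adjustment over all rows of the tissue at 0.05. TMM changes are relative to the bulk of rows and differ from CPM ratios. The test was tried on simulated data beforehand. Within-library ratios (0.5 counts added) were added after seeing the data and tested by permutation, exact or with 100000 resamples. DESeq2 1.42.0, the Wilcoxon test and other settings were alternatives. Sequences came from GENCODE M21 by transcript (1382 of 1395 rows matched) and types from alignment with edlib. Depth ranged from 232397 to 64070775 snRNA counts, and reads carried no molecular identifiers, so counting precision covers counting error only. No label ties the same mouse number in different arms to a shared litter or day, and deviations of U2/U1 of same-numbered mice did not go together (r = -0.02 over 653 pairs). Libraries of a group came from separate mice. The piRNA and circRNA tables were not used here.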

Additional observations from a re-analysis of the deposited data

Results flagged for a closer look

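Within groups of 4 to 10 libraries, a single library stood apart from the rest in 6 of 231 tests of group and ratio, by a gap test that flags about 1 in 20 groups by chance. In brain of HGC in LAR, U2/U1 of mouse 13 was -0.77, against -1.46 to -1.35 in the other libraries. In liver of VGC in LAR, U6/U1 of mouse 5 was -4.07, against -3.08 to -2.05. In lung of FL in TERM, U5/U1 of mouse 5 was -4.77, against -3.19 to -1.6. In MAT of FL in TERM, U2/U1 of mouse 2 was 0.51, against -1.75 to -0.82, and the miRNA profile of that library was closest to another tissue. In spleen of TERM, U5/U1 was -4.34 in HGC mouse 4, from 1 of the 11 pools, against -3.01 to -1.99, and -1.71 in VGC mouse 2, against -3.39 to -2.94.

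The difference between LAR and TERM itself differed between a tissue and the mean of the other 12 in 7 pairs of ratio and tissue (permutation within arms, Benjamini-Hochberg adjusted). For U6/U1 it was 2.82 in pancreas (adjusted p = 0.000325), -0.75 in heart (adjusted p = 0.000433) and -0.63 in liver (adjusted p = 0.0326). For Gm25813/Rnu2-10 it was -1.84 in pancreas (adjusted p = 0.000325), 0.31 in liver (adjusted p = 0.000975) and 0.27 in lung (adjusted p = 0.0326). For U5/U1 it was 0.64 in MAT (adjusted p = 0.0326). The mean of the other 12 includes pancreas for heart, liver, lung and MAT. The difference between LAR and TERM in the effect of FL over HGC passed for no ratio in any tissue.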

How the results depend on the processing

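Of the counts of calls and ratios recomputed, 208 stayed within 1.5 times their value and 21 moved. A count of 0 that stayed 0 was scored as staying, as in all leave-one-out counts of FL against HGC. The tally is thus no measure of how stable the other counts are. With library sizes over 7 classes and no TMM, chosen after seeing the data in place of a planned total over all classes that was not run, the calls were 18 for FL against HGC in LAR, 1 for FL against HGC in TERM, 17 for 8 against 3 months in TERM, 41 for LAR against TERM and 135 for tissues in LAR. There Rnu1a1, Gm22513 and Gm25890 in pancreas turned to 0.88, 0.87 and 0.85, and Gm25813 lost its call (-0.1, adjusted p = 0.801 by edgeR). Without a filter on low counts, HGC against VGC in LAR gave 7 calls and age in TERM 0. By DESeq2, HGC against VGC in LAR gave 1. With DESeq2's size factors, age in LAR gave 1. With plate as a term, FL against VGC in TERM gave 7. Without the 11 pools, age in TERM gave 0. Without libraries closest to another tissue, FL against HGC, FL against VGC and HGC against VGC in TERM and age in LAR gave 1 each, LAR against TERM gave 37, and the ratios gave 1 for FL against VGC in LAR (Gm23444/Rnu2-10 in GAT, adjusted permutation p = 0.0367) and 3 for LAR against TERM. Leaving out each library in turn in the groups of 5 or fewer (brain, and pancreas of TERM) gave 0 to 1 calls for HGC against VGC in LAR (1 without brain FL mouse 17 or VGC mouse 17), 0 to 3 for FL against VGC in TERM (3 without brain VGC mouse 7) and 0 for the other arm comparisons. With the mouse number as a replicate block, each arm comparison gave 0 calls, and with the animal as a block the tissues gave 53 in LAR and 101 in TERM, so the block moved no count by over 1.5 times. The cause of these moves was not tested. The lowest count of any of the 50 rows in a library was 199, so depth limits them less than the spread between libraries.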
